A study of Mus musculus with 9 samples.

Results

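The genes described here code for 10 proteins grouped as enzymes of mitochondrial fatty acid oxidation. All but CPT1C, an isoform of the endoplasmic reticulum, move fatty acids into the mitochondrial matrix or oxidize them there. The genes were picked by symbol (*Cpt1a*, *Cpt1c*, *Cpt2*, *Acadvl*, *Acadl*, *Acadm*, *Acads*, *Hadha*, *Hadhb* and *Hadh*) from a table of 55401 genes. Each was present in the table, and 10 of 10 passed the filter on low counts, as did 17818 genes in all. The samples were forebrains of female mouse embryos at embryonic day 16 to 17, 5 from wild-type mice (WT, Npas3+/+) and 4 from mice with a heterozygous deletion of *Npas3* (HET, Npas3+/-). NPAS3 is a transcription factor of the basic helix-loop-helix PAS class, and the study asked how it regulates energy metabolism in astrocytes. The mutation was constitutive, so every cell of a HET embryo carried it, the WT embryos were littermates on the same C57BL/6J background, and no treatment was given to either group. The embryos are named by their labelled numbers, which are 5, 15, 16, 41 and 43 in WT and 5, 6, 7 and 24 in HET.

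Long-chain fatty acids enter mitochondria as carnitine esters. CPT1 enzymes of the outer membrane, here CPT1A, form the ester, and CPT2 of the inner membrane turns it back into acyl-CoA. Each turn of beta-oxidation then begins with an acyl-CoA dehydrogenase, of which ACADVL, ACADL, ACADM and ACADS serve very long, long, medium and short chains. The trifunctional protein (HADHA and HADHB) and the dehydrogenase HADH carry out later steps of the turn, which yields acetyl-CoA. In brain this pathway is known mainly from astrocytes and neural progenitors, and neurons are held to use it little.

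Total counts per embryo ran from 42640218 to 62830060. Although the labels name astrocytes as the cell type, RNA of many cell types was present: neuronal *Tubb3* averaged 915.8 RPKM (reads per kilobase of exon, scaled to library size) over the 9 embryos, and the 10 radial glia and astrocyte markers averaged from 0.166 RPKM for *Aqp4* and 2.09 RPKM for *Gfap*, genes of mature astrocytes, to 396.3 RPKM for *Fabp7*, a gene of radial glia. *Npas3* itself was at 36.2 ± 4.18 CPM (counts scaled to library size, SD, n = 5) in the WT embryos against 29.5 ± 3.09 CPM (SD, n = 4), with overlapping groups (29.7 to 40.8 against 27.8 to 34.1 CPM) and a log2 fold change of -0.30 (standard error 0.10, edgeR adjusted p = 0.877). Choroid plexus RNA was unequal: *Ttr*, its most abundant gene, reached 2127 to 2631 CPM in 3 WT embryos (15, 16 and 41) and 466.6 CPM in HET embryo 24 but 0.770 to 11.7 CPM in the other embryos. The summed radial glia and astrocyte markers were at 1398 to 1503 CPM in WT and 1136 to 1215 CPM in HET, without overlap. Without *Fabp7* the sums were 753.0 to 951.3 and 756.4 to 867.8 CPM, although *Aqp4* and *Aldh1l1* also had log2 fold changes of -1.63 and -1.16 (adjusted p 0.555 and 0.904). Of the 10 markers 7 had a negative log2 fold change, some of them near 0 (*Gja1* -0.01, *Slc1a2* -0.07). The other 3 had a positive one (*Aldoc* 0.15, *Sox9* 0.13, *Gfap* 0.08). The part that these cell type differences have in the results was not tested. In bulk tissue, fewer cells of a type and less RNA per cell cannot be told apart.

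The promoters are shown first for *Cpt1a* and for the adjoining pair *Hadha* and *Hadhb*. *Cpt1a* was picked for the largest log2 difference of the 10 genes, although it was not called between genotypes. Sequences are from the GRCm38.p6 genome with RefSeq transcription starts. Capitals mark the E-box CANNTG, the general site of basic helix-loop-helix factors. The *Cpt1a* run is chr19:3323051-3323284 on the plus strand, just upstream of the first exon of the transcript with the RefSeq start. A longer GENCODE transcript of *Cpt1a* begins farther upstream, at 3322334, so the run lies within the annotated gene. The other run is the chr5:30155163-30155247 interval between the annotated ends of *Hadha*, on the minus strand, and *Hadhb*, on the plus strand, and is printed on the plus strand.
*Cpt1a* upstream: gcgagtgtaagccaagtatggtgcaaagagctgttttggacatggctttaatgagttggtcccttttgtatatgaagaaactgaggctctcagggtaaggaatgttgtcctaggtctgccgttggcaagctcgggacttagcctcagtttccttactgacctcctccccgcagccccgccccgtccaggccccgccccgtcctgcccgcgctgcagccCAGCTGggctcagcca
*Hadha Hadhb* interval: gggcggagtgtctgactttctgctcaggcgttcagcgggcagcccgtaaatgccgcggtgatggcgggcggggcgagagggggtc

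The RefSeq starts of *Hadha* and *Hadhb* lie 273 bases apart and point away from each other, so both subunit genes are read from a shared stretch of DNA that holds no E-box between the annotated ends. In windows of 300 bases (250 before and 50 after the RefSeq start, both strands), CANNTG was found for 4 of the 10 genes, with 2 matches for *Cpt2* and 1 each for *Cpt1a*, *Acadl* and *Acadm*. It occurred in 72.3% of 32851 such windows genome-wide. The nuclear receptor half-site AGGTCA, the letters bound by PPAR and related receptors, was found in the windows of *Cpt1a*, *Cpt1c*, *Acadvl* and *Acadm*, against 16.3% of all windows, and no match of one motif overlapped a match of the other in these 10 windows. Such letters are a description of the windows and not bound sites.

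No gene of the 10 passed the test between genotypes. In a quasi-likelihood fit of edgeR over all 17818 genes, HET against WT, with p-values adjusted after Benjamini and Hochberg, 0 of the 10 genes reached an adjusted p under 0.05, where 0.14% of all tested genes did. By the same test, 1 of 10 (*Cpt1a*) had an unadjusted p under 0.05, against 5.42% of all genes, and DESeq2 and limma-voom also called 0 of the 10. The direction of the small differences was mostly shared: 9 of 10 genes had a negative log2 fold change in HET, against 51.5% of all tested genes. The median log2 fold change of the 10 genes was -0.09, beside -0.00463 for all genes. In 0 of 10 genes did the WT and HET values separate completely, where all HET embryos lay below all WT embryos in 1.07% of genes and above them in 0.786%.

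**Figure D1:**
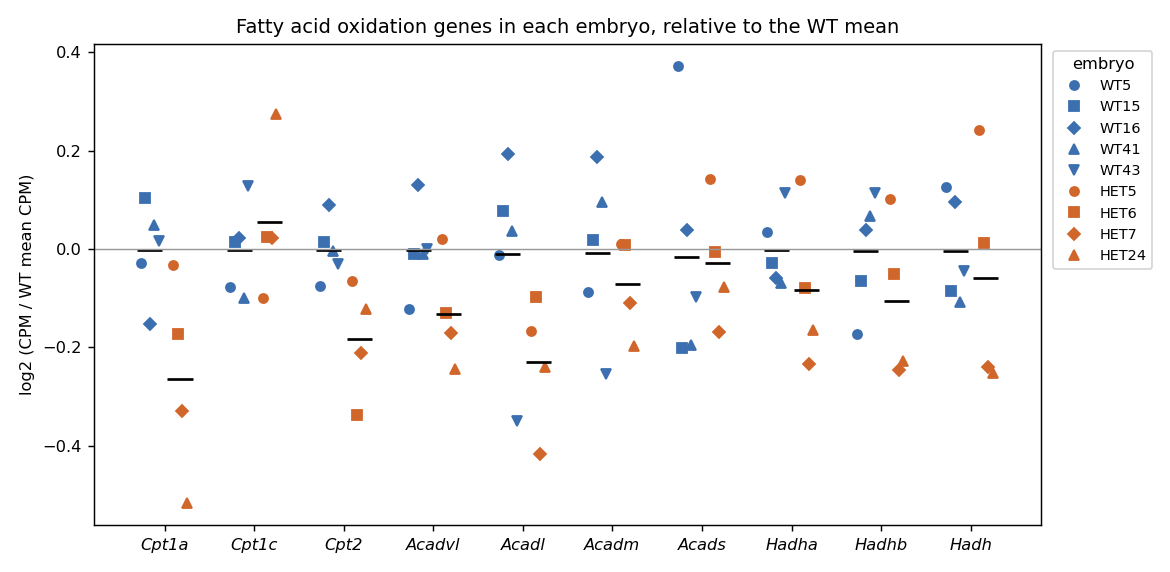
The log2 ratio of each embryo's CPM to the WT mean (y axis) is plotted for the 10 genes (x axis), with WT embryos in blue, HET embryos in orange and black bars at group means. HET embryos 7 and 24 lie below 0 for 9 of the 10 genes each, and HET embryo 5 for 4.

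Per length, the *Hadha* transcript was the most abundant of the 10, at 13.6 ± 1.14 RPKM (SD over 9 embryos) when the union of all exons is the length. *Acadvl* followed at 11.6 ± 0.930 RPKM and *Acadl* at 9.82 ± 1.37 RPKM, and each step of this order held in 9 of 9 embryos. The place of *Acadvl* is uncertain, because it may have gained or lost reads where it overlaps another gene. *Acadm*, *Acads*, *Hadh* and *Cpt1c* formed a middle group with means of 7.31 to 8.51 RPKM, within which neighbours changed places from embryo to embryo. *Cpt1c* exceeded *Cpt1a* (5.94 ± 0.774 RPKM) in 9 of 9 embryos. *Cpt1a* and *Cpt2* (5.89 ± 0.506 RPKM) could not be ordered, *Cpt1a* being higher in 6 of 9. *Hadhb* was lowest at 4.24 ± 0.406 RPKM, and its gap to *Cpt2* was the only one between neighbours without overlap of the ranges.

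Much of that order depends on which length is used. With the median length of the coding transcripts, an alternative added after the data were seen, *Hadha* stayed first at 29.5 RPKM, but *Hadh* rose to the second place (20.4 RPKM) and *Hadhb* from the tenth to the sixth (13.7 RPKM). *Cpt2* was then lowest at 8.31 RPKM. On the coding length, *Cpt1c* (14.9 RPKM) remained above *Cpt1a* (10.5 RPKM). *Cpt1b*, the muscle isoform, named after its values were seen, had 8 to 18 counts per library and a mean of 0.0771 RPKM on the union length.

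**Figure D2:**
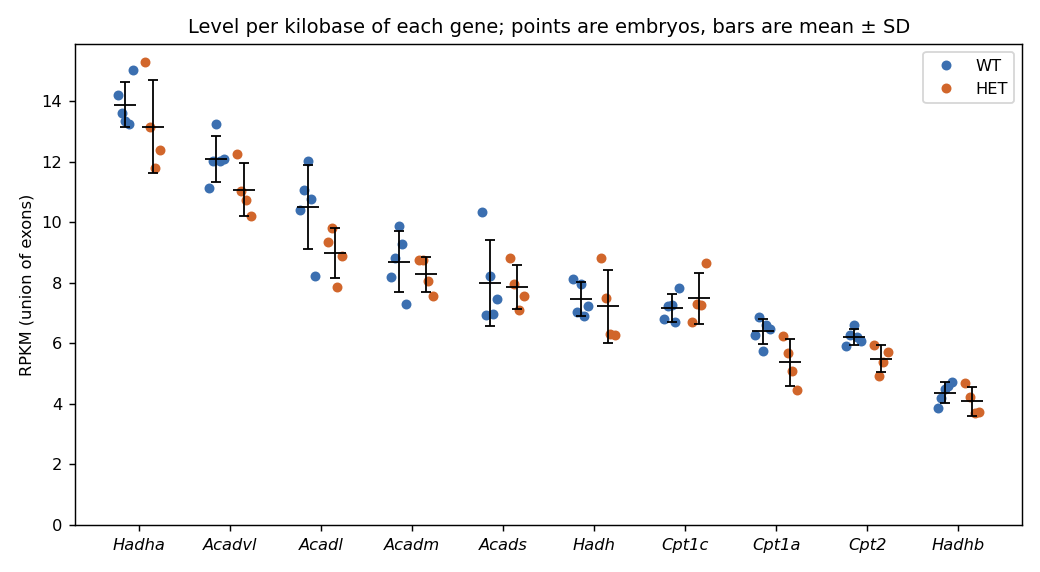
RPKM on the union of exons (y axis, from 0) is shown for each gene (x axis, ordered by the mean over 9 embryos), with WT embryos in blue, HET embryos in orange, and bars of mean ± SD within each genotype. *Hadha* stands highest (13.6 RPKM) and *Hadhb* lowest (4.24 RPKM), and the genotypes overlap at every gene.

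The carnitine shuttle genes and *Cpt1c*, listed with them, held the largest difference and the only positive one. *Cpt1a* (ENSMUSG00000024900, chr19:3322334-3385733, plus strand) codes for the CPT1 isoform of liver and most other tissues, the step that malonyl-CoA inhibits. Its level in WT embryos 5, 15, 16, 41 and 43 was 47.9, 52.5, 44.0, 50.5 and 49.4 CPM, and in HET embryos 5, 6, 7 and 24 it was 47.7, 43.3, 38.9 and 34.2 CPM. HET embryo 5 lay inside the WT range and the other 3 lay below every WT embryo, one of them by under 1 CPM. The means were 48.9 ± 3.21 CPM (SD, n = 5) and 41.02 ± 5.83 CPM (SD, n = 4), a log2 fold change of -0.25 (standard error 0.10, 95% interval -0.46 to -0.04). The unadjusted edgeR p was 0.0229 and the adjusted p 0.908, so the gene was not called. In percent the difference was -16.1%, with an interval of -27.5% to -2.89%.

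*Cpt1c* (ENSMUSG00000007783, chr7:44959372-44974851, minus strand) codes for the brain isoform, which sits in the endoplasmic reticulum of neurons, senses malonyl-CoA and has little catalytic activity. It was at 38.1, 40.6, 40.8, 37.5 and 43.9 CPM in the WT embryos and at 37.5, 40.8, 40.8 and 48.6 CPM in the HET embryos, each in the order given for *Cpt1a*. Apart from HET embryo 24, the highest of the 9, all values fell within a narrow common range. The means were 40.2 ± 2.54 (SD, n = 5) and 41.9 ± 4.71 CPM (SD, n = 4), a log2 fold change of 0.06 (standard error 0.08, interval -0.12 to 0.24, edgeR adjusted p = 0.935). The gene shares 6.53% of its exonic bases with an opposite-strand gene, 6530437J22Rik, which had only 7 to 18 counts per library.

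*Cpt2* (ENSMUSG00000028607, chr4:107903981-107923610, minus strand) codes for the inner membrane enzyme of the shuttle. It had 14.1, 14.99, 15.8, 14.8 and 14.6 CPM in WT and 14.2, 11.8, 12.8 and 13.7 CPM in HET. As with *Cpt1a*, HET embryos 6, 7 and 24 lay below every WT embryo and HET embryo 5 did not, although it passed the lowest WT embryo only narrowly. From 14.9 ± 0.634 CPM (SD, n = 5) to 13.1 ± 1.06 CPM (SD, n = 4), the log2 fold change was -0.18 (standard error 0.08, interval -0.36 to 0.00334), with an unadjusted p of 0.0536 and an adjusted p of 0.911 in edgeR. Counts were 505 to 940 per library.

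The ratio of the 2 CPT1 isoforms within a library does not depend on scaling. The count ratio of *Cpt1a* to *Cpt1c* was 1.26, 1.29, 1.08, 1.35 and 1.13 in WT and 1.27, 1.06, 0.953 and 0.703 in HET. *Cpt1c* had more counts than *Cpt1a* in HET embryos 7 and 24 and in no other embryo. WT embryos had a mean log2 ratio of 0.28 ± 0.137 (SD, n = 5), and HET embryos one of -0.04 ± 0.359 (SD, n = 4). The difference of -0.32 gave p = 0.0952 in an exact two-sided permutation test (0.286 adjusted over 3 ratios), with 0.0159 the smallest p that these group sizes allow. Without HET embryo 24 the difference was -0.16 (adjusted p 0.643), and without the embryos with high *Ttr* it was -0.13 (adjusted p 0.900). Fewer embryos raise the smallest p that the test allows. Without HET embryo 24, a single ratio could not reach an adjusted p under 0.05. Without the embryos with high *Ttr*, 2 WT and 3 HET embryos remained, and no p under 0.05 was possible.

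The acyl-CoA dehydrogenases all had negative log2 fold changes, from -0.23 to -0.02, and 0 of 4 was called. *Acadvl* (ENSMUSG00000018574, chr11:70010183-70015411, minus strand), the dehydrogenase of very long chains, was at 29.9, 32.3, 35.6, 32.3 and 32.5 CPM in WT and 33.0, 29.7, 28.9 and 27.4 CPM in HET. HET embryos 6, 7 and 24 were again the lowest 3 of the 9, and HET embryo 5 was the second highest. The means of 32.5 ± 2.03 (SD, n = 5) and 29.7 ± 2.35 CPM (SD, n = 4) gave a log2 fold change of -0.13 (standard error 0.07, interval -0.29 to 0.04, edgeR adjusted p = 0.911). Without the embryos in which *Ttr* exceeded 100 CPM, which leaves 2 WT and 3 HET, it was -0.031. With a choroid plexus covariate in the fit of all 9 embryos it was -0.12. The level and the difference are uncertain, because 42.9% of the exonic bases overlap *Dvl2* on the opposite strand, itself at 43.4 to 61.1 CPM, and the use of strand in the counting is not stated.

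*Acadl* (ENSMUSG00000026003, chr1:66830839-66863277, minus strand), the long-chain enzyme, had 20.9, 22.2, 24.1, 21.6 and 16.5 CPM in WT and 18.8, 19.7, 15.8 and 17.8 CPM in HET. All HET embryos lay below 4 of the WT embryos, and WT embryo 43, the lowest but one of the 9, made the groups overlap. The means were 21.1 ± 2.80 (SD, n = 5) and 18.0 ± 1.67 CPM (SD, n = 4), and the log2 fold change was -0.23 (standard error 0.11, interval -0.47 to 0.02, unadjusted p 0.0690, edgeR adjusted p = 0.911). It was -0.05 without the embryos with high *Ttr* and -0.15 with the choroid plexus covariate. Against *Acadvl*, the log2 count ratio averaged -0.63 ± 0.192 over the WT embryos (SD, n = 5) and -0.72 ± 0.139 over the HET embryos (SD, n = 4), which differ by -0.09 (exact two-sided permutation p = 0.508, adjusted 0.762). The difference in this ratio was -0.18 without WT embryo 43 (adjusted p 0.0857), -0.042 without HET embryo 7 (adjusted p 0.821) and -0.014 without the embryos with high *Ttr*. Without WT embryo 43 the genotypes did not overlap in this ratio, so its unadjusted p was the smallest that the remaining embryos allow. A single ratio at that smallest p stays above 0.05 after adjustment over 3 ratios.

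*Acadm* (ENSMUSG00000062908, chr3:153922357-153944632, minus strand), the medium-chain enzyme, whose human counterpart is the gene most often affected in inherited disorders of this pathway, was at 32.0, 34.5, 38.7, 36.3 and 28.5 CPM in WT. In HET it was at 34.3, 34.2, 31.5 and 29.6 CPM. The HET embryos all lay within the WT range. The log2 fold change was -0.07 (standard error 0.09, interval -0.27 to 0.13, edgeR adjusted p = 0.935), from 34.0 ± 3.93 (SD, n = 5) to 32.4 ± 2.24 CPM (SD, n = 4). It was 0.14 without the embryos with high *Ttr* and -0.00368 with the choroid plexus covariate.

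*Acads* (ENSMUSG00000029545, chr5:115110299-115119346, minus strand), the short-chain enzyme, was at 23.5, 15.8, 18.6, 15.8 and 17.0 CPM in WT and at 20.01, 18.05, 16.1 and 17.2 CPM in HET. The groups interleaved, with WT embryo 5 highest and WT embryos 15 and 41 lowest. The means of 18.1 ± 3.20 (SD, n = 5) and 17.8 ± 1.64 CPM (SD, n = 4) differed by a log2 fold change of -0.02 (standard error 0.13), and its interval of -0.30 to 0.25 is the widest of the 10 (edgeR adjusted p = 0.981).

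Of the 3 genes of the later steps, 0 were called and the log2 fold changes lay between -0.10 and -0.05. *Hadha* (ENSMUSG00000025745, chr5:30118304-30155162, minus strand) codes for the subunit of the trifunctional protein with the hydratase and long-chain hydroxyacyl-CoA dehydrogenase activities. It had 124.0, 118.7, 116.3, 115.5 and 131.2 CPM in WT and 133.6, 114.7, 103.0 and 108.1 CPM in HET. The HET embryos took both ends of the range, with HET embryo 5 above and the other 3 below every WT embryo. The means were 121.2 ± 6.51 (SD, n = 5) and 114.8 ± 13.4 CPM (SD, n = 4), with a log2 fold change of -0.08 (standard error 0.08, interval -0.25 to 0.10, edgeR adjusted p = 0.915). With 4926 to 7331 counts per library it was the most deeply counted of the 10 genes.

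*Hadhb* (ENSMUSG00000059447, chr5:30155248-30184593, plus strand) codes for the thiolase subunit of the same protein. It was at 25.6, 27.6, 29.6, 30.2 and 31.2 CPM in WT and 30.9, 27.9, 24.3 and 24.6 CPM in HET. HET embryos 7 and 24 were the lowest of the 9, while HET embryos 5 and 6 lay within the WT range. From 28.8 ± 2.25 (SD, n = 5) to 26.9 ± 3.10 CPM (SD, n = 4), the log2 fold change was -0.10 (standard error 0.09, interval -0.30 to 0.10, edgeR adjusted p = 0.913). Of its 50-base words, 19.7% occur in other transcripts, among them those of Gm13910 and Gm9108. Gm9108 had only 0 to 1 counts per library, but some reads of *Hadhb* may have been dropped or counted for other genes.

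Although both subunits join in 1 complex, *Hadha* had several times the counts of *Hadhb* in every embryo. The count ratio was 4.85, 4.30, 3.93, 3.83 and 4.20 in WT and 4.32, 4.12, 4.24 and 4.39 in HET. Per length, the ratio of the mean levels was 3.19 on the union of exons and 2.15 on the coding length. The genotypes did not separate, with log2 count ratios of 2.07 ± 0.134 (SD, n = 5) and 2.09 ± 0.0392 (SD, n = 4), a difference of 0.02 (exact two-sided permutation p = 0.810, adjusted 0.810).

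*Hadh* (ENSMUSG00000027984, chr3:131233419-131272101, minus strand) codes for the hydroxyacyl-CoA dehydrogenase of medium and short chains. Its values were 40.5, 34.9, 39.6, 34.4 and 35.9 CPM in WT and 43.8, 37.4, 31.4 and 31.1 CPM in HET. As for *Hadha*, HET embryo 5 was the highest of the 9 and HET embryos 7 and 24 the lowest. The log2 fold change was -0.05 (standard error 0.11, interval -0.28 to 0.19, edgeR adjusted p = 0.952), from 37.1 ± 2.79 (SD, n = 5) to 35.9 ± 6.01 CPM (SD, n = 4).

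**Figure D3:**
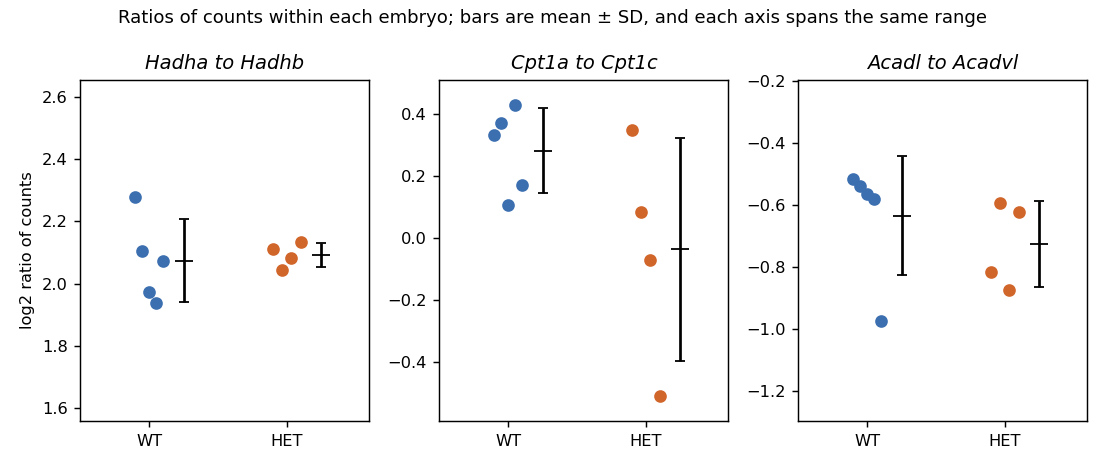
Log2 ratios of counts (y axis, 3 panels whose axes span the same range) are plotted by genotype for *Hadha* to *Hadhb*, *Cpt1a* to *Cpt1c* and *Acadl* to *Acadvl*, with each point an embryo and bars of mean ± SD. The genotypes overlap in each panel, and the widest spread is that of *Cpt1a* to *Cpt1c* in HET (SD 0.359).

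Across the 10 genes, the HET embryos were not alike. The mean over the genes of the log2 ratio to the WT mean was -0.21 in HET embryo 7, -0.18 in embryo 24 and -0.08 in embryo 6, but 0.03 in embryo 5. In WT it ran from -0.04 in embryo 43 to 0.06 in embryo 16. HET embryos 7 and 24 were below the WT mean for 9 of 10 genes each, and between them they held the lowest value of 6 genes. WT embryo 16 held the highest value of 4 genes. The median log2 fold change of the 10 genes was -0.17 without HET embryo 5, -0.054 without HET embryo 7, -0.053 without HET embryo 24 and -0.047 without the embryos with high *Ttr*. With a choroid plexus covariate in the fit of all 9 embryos, that median was -0.12. Without HET embryo 7 the number of genes on the negative side was 7 of 10. Without HET embryo 5 *Cpt1a*, *Cpt2*, *Acadvl* and *Hadha* no longer overlapped between genotypes, although 0 genes were called. Leaving out an embryo can only remove overlap, and the share of all tested genes so separated was not counted in this setting.

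**Figure D4:**
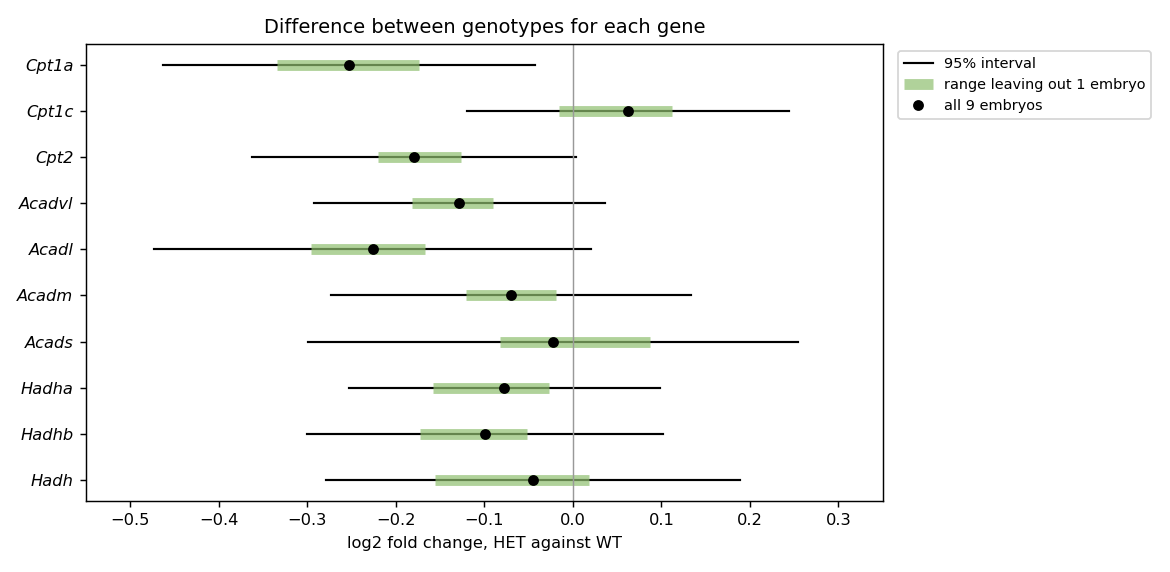
Log2 fold changes of HET against WT (x axis) are shown for the 10 genes (y axis) as points with 95% intervals as black lines and, in green, the range when 1 embryo at a time is left out. Only the interval of *Cpt1a* (-0.46 to -0.04) lies wholly below 0, and the green ranges of *Cpt1c*, *Acads* and *Hadh* cross it.

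Spread among all 9 embryos was modest. The coefficient of variation of CPM was 7.99% for *Acadvl*, the lowest, and between 13.0% and 14.0% for *Cpt1a*, *Acads* and *Acadl*, the highest 3. In 7 of 10 genes it was under 12.8%, the median of all tested genes. That median includes many genes of low counts, whose counting error raises it, and genes of like level were not compared. For *Hadha* the interval bounds the difference between -16.1% and 7.02%, and for *Acads* between -18.7% and 19.2%, and differences inside these bounds could not be told from none in 9 embryos.

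The genes around the 10 enzymes were grouped into lists of 83 genes, of which 79 were tested. Of these 49 (62.0%) had a negative log2 fold change, 5 had an unadjusted p under 0.05 and 1, *Klf15*, was called lower. Among all tested genes these shares were 51.5%, 5.42% and, for calls in either direction, 0.14%. All HET embryos lay below all WT embryos in 3 of the 79, against 1.07% of all tested genes. Among the other mitochondrial genes of beta-oxidation, 14 of 17 were on the negative side with a median log2 fold change of -0.08, and 0 were called (1 at an unadjusted p under 0.05). *Decr1*, the reductase needed for polyunsaturated chains, had the lowest p of them, with a WT mean of 13.4 ± 0.894 CPM (SD, n = 5), a HET mean of 11.2 ± 1.33 CPM (SD, n = 4) and a log2 fold change of -0.25 (unadjusted p 0.0300, edgeR adjusted p = 0.908). *Echs1*, the short-chain enoyl-CoA hydratase, was at 72.0 ± 5.17 and 66.2 ± 3.48 CPM (log2 fold change -0.12). *Hsd17b10*, a dehydrogenase of branched and short chains, had the highest level per length of that list (39.3 RPKM) and a log2 fold change of -0.06.

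Of the genes that activate fatty acids to acyl-CoA or hydrolyze acyl-CoA, 10 of 16 tested were on the positive side, with a median log2 fold change of 0.02 and 0 called. The largest difference among them was that of *Acsbg1*, an acyl-CoA synthetase of astroglia. It was at 10.9 to 13.8 CPM in WT and 6.52 to 10.5 CPM in HET, without overlap, and its log2 fold change of -0.48 (standard error 0.14) had an unadjusted p of 0.00542 and an adjusted p of 0.671 in edgeR. *Acsl4*, a synthetase that prefers arachidonate, had a log2 fold change of 0.16 (adjusted p = 0.911). *Acot7*, a thioesterase abundant in neurons and the highest of the list at 53.0 RPKM, had one of 0.04. *Acsbg2* was not tested, being under the filter.

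In the peroxisomal branch, which shortens very long chains, 9 of 15 tested genes were on the negative side, the median log2 fold change was -0.06 and 0 were called, with 0 at an unadjusted p under 0.05. *Acaa1a*, a peroxisomal thiolase, had a log2 fold change of -0.18 (adjusted p = 0.911), and *Hsd17b4*, the multifunctional enzyme and the highest of the list at 31.1 RPKM, one of -0.04. *Acox2* and *Eci3* were under the filter.

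Of the 7 ketone body genes, 6 were on the negative side with a median of -0.06 and 0 were called by edgeR (1 at an unadjusted p under 0.05). *Acat1*, the mitochondrial acetoacetyl-CoA thiolase, had a log2 fold change of -0.10 (adjusted p = 0.911) and *Oxct1*, which activates ketone bodies for use and led the list at 68.2 RPKM, one of -0.01.

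Regulators of the pathway split evenly, 10 of 20 tested genes on each side, with a median log2 fold change of -0.00484. *Klf15*, a Krüppel-like transcription factor known to promote fatty acid oxidation in muscle and heart, was the 1 gene called. It was at 9.72, 9.11, 10.4, 10.1 and 10.4 CPM in WT and 6.28, 6.38, 6.51 and 4.97 CPM in HET, and the genotypes did not overlap. Its log2 fold change was -0.72 (standard error 0.11, unadjusted p 3.43e-05, edgeR adjusted p = 0.0291). The study had named *Klf15* for these samples, so it is not independent evidence. The call was kept with the choroid plexus covariate (log2 fold change -0.76, adjusted p 0.0336), by DESeq2 and limma-voom, and under the other scalings and filters. It was lost whichever embryo was left out, with log2 fold changes of -0.76 to -0.64 and adjusted p 0.0555 to 0.122, and without the embryos with high *Ttr* (log2 fold change -0.65, adjusted p 0.640). *Ppard*, a nuclear receptor for fatty acids, had a log2 fold change of 0.18 (adjusted p = 0.911), and *Rxrb*, a partner of such receptors and the highest of the list at 18.8 RPKM, had 0.06. *Pparg* was under the filter.

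The acyl-CoA dehydrogenases of amino acid breakdown, relatives of the 4 fatty acyl enzymes, were on the negative side in 4 of 4, with a median of -0.08 and 0 called. *Acad8*, which acts on valine, had a WT mean of 43.1 ± 3.71 CPM (SD, n = 5) and a HET mean of 38.2 ± 1.85 CPM (SD, n = 4), with a log2 fold change of -0.17 (unadjusted p 0.0409, edgeR adjusted p = 0.911). *Ivd*, which acts on leucine, had -0.10 (adjusted p = 0.911), and *Acadsb*, which acts on isoleucine and had the highest level of them at 14.6 RPKM, -0.02.

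**Figure D5:**
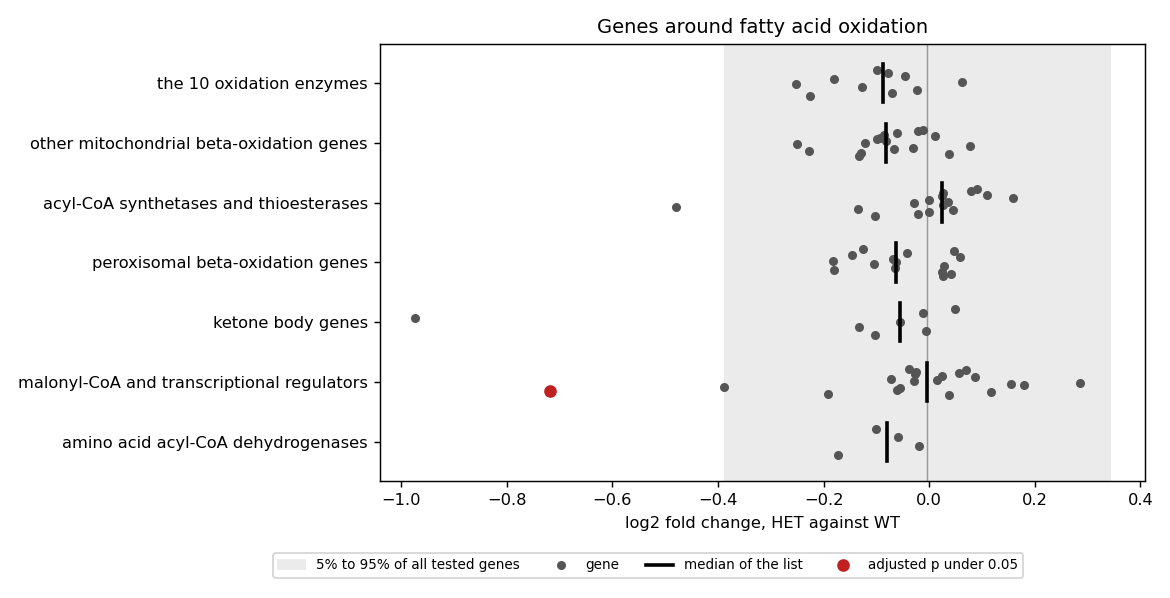
Each point is the log2 fold change of HET against WT (x axis) of a tested gene, in rows by list (y axis), with a black bar at the list's median, gray shading between the low and high percentiles named in the key and a gray line at their median. *Klf15* (red, -0.72) is the only gene with an adjusted p under 0.05, and the 10 oxidation enzymes lie within the shading around a median of -0.09.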

How the data were processed

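Counts of reads per gene for 9 forebrains (5 WT, 4 HET) were used as deposited, without normalization. Per the labels and the paper's methods, the authors made TruSeq libraries from poly(A) RNA, used one read of each pair, aligned with STAR 2.7.9a to GRCm38.p6 and counted with featureCounts on GENCODE M25. The use of strand and of multiply aligned reads is not given in the sources used here. All columns were mapped by name to a labelled sample.

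Genes were filtered with filterByExpr (minimum count 10), scaled by TMM and tested for HET against WT without covariates by edgeR 4.0.16 (quasi-likelihood, Benjamini-Hochberg, threshold 0.05) in R 4.3.3. The common biological coefficient of variation was 16.8%. The fit was tested on simulated data. Ratios were tested with exact permutation tests (scipy 1.17.1, Python 3.11.15). RPKM used TMM-scaled library sizes and exon unions of GENCODE M21, which holds 55141 of the 55401 identifiers and gave coordinates. Totals ran from 42640218 to 62830060 counts. PCR duplicates cannot be recognized, so the counting error may be larger than these totals imply.

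The 10 genes, taken by symbol, and all lists were chosen with earlier results of these data known. Besides them, the text names *Npas3*, *Ttr* and, per pathway list, genes past the threshold, the 2 lowest unadjusted p-values and the highest mean RPKM. Some genes that this rule names are not reported here. Marker lists covered choroid plexus, radial glia and astrocytes, neurons, oligodendrocyte lineage, endothelium, microglia, blood and meningeal fibroblasts. Alternatives were DESeq2 1.42.0, limma-voom (limma 3.58.1), DESeq2 size factors, upper-quartile scaling, no filter, a filter of 1 CPM in 4 samples, a choroid plexus covariate, leaving out embryos with *Ttr* above 100 CPM, and leaving out each embryo.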

Additional observations from a re-analysis of the deposited data

Results flagged for a closer look

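Some single embryos stood apart from the rest of their genotype, by a gap large against the range of the group. In WT embryo 16, *Echs1* was at 81.1 CPM (others 68.6 to 71.1 CPM) and *Hsd17b10* at 58.9 CPM (others 48.6 to 51.1 CPM). In WT embryo 41, *Acsbg1* was at 13.8 CPM against 10.9 to 11.2 CPM. In WT embryo 43 the log2 count ratio of *Acadl* to *Acadvl* was -0.97, against -0.58 to -0.52, which follows from its low *Acadl* of 16.5 CPM. In HET embryo 24 *Klf15* was at 4.97 CPM against 6.28 to 6.51 CPM. In HET embryo 7 *Npas3* was at 34.1 CPM against 27.8 to 28.2 CPM, and the same embryo had the lowest mean level of the 10 oxidation genes. These are 6 of 64 groups of values examined, where chance gives about 1 in 20, or 3.2. CPM of the 10 oxidation genes had no such embryo in either genotype.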

How the results depend on the processing

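None of the 10 oxidation genes was called under any of the 17 other settings. *Cpt1a*, *Cpt2*, *Acadvl*, *Acadl*, *Hadha* and *Hadhb* kept a negative log2 fold change in all 17, with *Cpt1a* between -0.33 and -0.17 and a lowest adjusted p of 0.440. Over all genes, 25 were called, against 86 by DESeq2, 15 without the embryos with high *Ttr* and 14 to 23 with 1 embryo left out. The pathway lists had 1 gene called (*Klf15*), but 0 without the embryos with high *Ttr* and 0 to 0 with each embryo left out in turn. Without the embryos with high *Ttr*, which leaves 2 WT and 3 HET, the sign turned for *Cpt1c* (-0.045), *Acadm* (0.14), *Acat1* (0.023), *Oxct1* (0.032), *Rxrb* (-0.031), *Acadsb* (0.055) and the log2 ratio of *Hadha* to *Hadhb* (-0.10), none of them called. With the choroid plexus covariate it turned for *Oxct1* (0.00283). Leaving out 1 embryo at a time gave ranges across 0 for *Cpt1c* (-0.016 to 0.11), *Acads* (-0.083 to 0.087), *Hadh* (-0.16 to 0.018), *Oxct1* (-0.045 to 0.017), *Acadsb* (-0.069 to 0.020) and the log2 ratio of *Hadha* to *Hadhb* (-0.015 to 0.071). The number of the 10 genes without overlap between genotypes then ran from 0 to 4: it was 1 without WT embryo 5 (*Cpt2*), 16 (*Cpt1a*) or 43 (*Acadl*), and 4 without HET embryo 5. The share of all tested genes without overlap was not counted in these settings, and leaving out an embryo can only remove overlap. The cause of these changes was not tested. No paired analysis was made, because no litter is named for the embryos and their day is given only as 16 to 17. The balance of litter and day between genotypes could therefore not be examined. The genotypes share 1 embryo number, which is not labelled as a pair. What can be seen is limited by the 5 and 4 embryos of the groups.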

Other observations

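The remaining cell type markers varied among embryos as follows. Summed neuronal markers were at 6047 to 6694 CPM in WT and 6036 to 6982 CPM in HET, and 0 of 8 genes were called (0 at an unadjusted p under 0.05 in edgeR). All 8 choroid plexus markers had negative log2 fold changes with a median of -3.12, and their sum was at 18.0 to 2916 CPM in WT and 27.5 to 535.3 CPM in HET, with 0 called and 6 at an unadjusted p under 0.05. Of 10 radial glia and astrocyte markers 7 were on the negative side, 1 was called lower, *Fabp7* (log2 fold change -0.86, edgeR adjusted p = 0.0223), and 3 had an unadjusted p under 0.05 (*Fabp7*, *Aqp4* and *Aldh1l1*). Of these, *Fabp7* and *Aqp4* did not overlap between genotypes, where all HET embryos lay below all WT embryos in 1.07% of all tested genes. Endothelial markers summed to 112.1 to 148.0 CPM in WT and 107.8 to 118.8 CPM in HET, oligodendrocyte lineage markers to 33.5 to 63.1 and 41.5 to 69.5 CPM, and microglial markers to 40.8 to 52.0 and 44.7 to 54.7 CPM. Blood markers summed to 219.1 to 566.8 CPM in WT and 378.4 to 444.0 CPM in HET, and markers of meningeal fibroblasts to 13.8 to 52.6 and 20.3 to 26.5 CPM. None of the genes in these last 5 lists was called by edgeR, and 4 had an unadjusted p under 0.05. Of these 4, *Olig1* and *Sox10* were higher in HET (log2 fold changes 0.63 and 0.67), and *Kdr* and *Pecam1* were lower (-0.31 and -0.21). Among all tested genes, 5.42% had an unadjusted p under 0.05 and 0.14% were called.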
